A study of Mus musculus with 7 samples.

Results

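The data described here were 4459 regions of the mouse genome, 2058 marked by 5-hydroxymethylcytosine (5hmC) at day 5 of chondrogenic differentiation and 2401 marked by 5-methylcytosine (5mC) at day 10, out of 8949 regions in the 4 peak lists of the series. Both lists were taken whole, and the comparison asks how the early 5hmC landscape lay against the later 5mC landscape: which regions coincided, how far apart the others were, and which genes carried early 5hmC only, both marks, or later 5mC only. The cells were ATDC5, a teratoma-derived mouse line of chondroprogenitors kept in DMEM/F12 with fetal bovine serum and ascorbic acid and driven toward chondrocytes by adding insulin, transferrin and selenite. The labels of these samples name no knockdown or other genetic change. The day 5 5hmC list was made from 2 merged samples and the day 10 5mC list from 1 sample, so each group is 1 list with no replicate spread, and no test across samples could be made. Intervals below are 95% Wilson intervals over peaks or genes and cover counting error only. The sequencing depth is unknown. A peak list cannot show whether the cells carried chondrocyte markers, since it holds no expression.

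5mC is placed on cytosine, mostly in CpG dinucleotides, by DNA methyltransferases, and TET dioxygenases oxidise it to 5hmC. 5hmC is either an intermediate on the way to unmethylated cytosine or a lasting mark, known mainly from enhancers and bodies of active genes. 5mC fills most CpG of the genome, including the exons of transcribed genes, and is scarce at CpG islands and active enhancers. Here 5hmC was captured by glucosylation and biotin tagging, and 5mC by a methyl-CpG binding protein complex. The authors kept 5hmC peaks of at least 10-fold and 5mC peaks of at least 3-fold enrichment over a control that the file headers do not name. The lists therefore differed in mark, day, capture and threshold at the same time, and these cannot be told apart. Days are those of the labels, while the study's text gives other days, so that "early" and "later" rest on the labels.

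Stretches of early 5hmC and later 5mC peaks are printed here as examples. The first 8 lines give, for Cmip, Pxn, Mgll and Pik3r1, chosen among genes whose peaks of both lists met or nearly met and whose 5hmC peak held an AP-1 string, 121 bases around the AP-1 string (TGACTCA or TGAGTCA) nearest the centre of the day 5 5hmC peak, with that string in capitals, and then the 121-base window of the day 10 5mC peak that held the most CpG, with each CpG in capitals. The next pair is the middle of the bases shared by both peaks in Zmiz1 and Pkd2, with CpG in capitals. The last pair is the stretch of coding exon richest in CpG in the later 5mC peaks of Fat1 and Ttn, genes with no early 5hmC peak. All are the plus strand of GRCm38 as held by RefSeq.
Cmip 5hmC, chr8:117395255-117395375: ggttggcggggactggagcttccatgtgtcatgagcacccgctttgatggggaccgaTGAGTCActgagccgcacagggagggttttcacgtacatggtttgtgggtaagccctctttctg
Cmip 5mC, chr8:117396490-117396610: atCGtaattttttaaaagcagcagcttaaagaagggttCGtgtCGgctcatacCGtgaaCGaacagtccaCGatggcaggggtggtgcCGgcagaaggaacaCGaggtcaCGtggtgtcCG
Pxn 5hmC, chr5:115514784-115514904: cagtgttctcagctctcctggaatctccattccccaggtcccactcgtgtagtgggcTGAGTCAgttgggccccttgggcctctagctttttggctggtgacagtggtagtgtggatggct
Pxn 5mC, chr5:115513827-115513947: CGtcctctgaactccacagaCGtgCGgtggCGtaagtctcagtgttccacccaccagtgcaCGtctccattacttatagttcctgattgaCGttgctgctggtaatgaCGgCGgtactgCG
Mgll 5hmC, chr6:88772066-88772186: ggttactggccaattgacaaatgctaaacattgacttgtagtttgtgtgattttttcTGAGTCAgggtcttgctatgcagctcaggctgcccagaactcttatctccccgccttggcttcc
Mgll 5mC, chr6:88770696-88770816: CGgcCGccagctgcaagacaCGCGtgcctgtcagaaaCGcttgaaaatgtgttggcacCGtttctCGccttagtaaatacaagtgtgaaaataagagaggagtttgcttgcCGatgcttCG
Pik3r1 5hmC, chr13:101686347-101686467: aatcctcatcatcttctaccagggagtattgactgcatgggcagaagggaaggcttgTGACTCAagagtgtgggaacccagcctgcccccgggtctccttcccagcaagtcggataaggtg
Pik3r1 5mC, chr13:101687087-101687207: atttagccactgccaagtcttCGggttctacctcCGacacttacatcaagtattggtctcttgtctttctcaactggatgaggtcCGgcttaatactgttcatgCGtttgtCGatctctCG
Zmiz1 shared, chr14:25509642-25509882: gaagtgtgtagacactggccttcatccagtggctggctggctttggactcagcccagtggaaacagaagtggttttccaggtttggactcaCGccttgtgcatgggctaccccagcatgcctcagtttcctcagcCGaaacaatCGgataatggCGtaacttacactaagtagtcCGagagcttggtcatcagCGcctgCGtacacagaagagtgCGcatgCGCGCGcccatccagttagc
Pkd2 shared, chr5:104466065-104466305: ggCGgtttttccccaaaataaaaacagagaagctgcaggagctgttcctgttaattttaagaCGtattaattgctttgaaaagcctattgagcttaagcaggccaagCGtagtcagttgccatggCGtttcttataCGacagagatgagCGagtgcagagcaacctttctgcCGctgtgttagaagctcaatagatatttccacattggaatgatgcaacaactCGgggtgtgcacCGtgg
Fat1 5mC exon, chr8:45051250-45051370: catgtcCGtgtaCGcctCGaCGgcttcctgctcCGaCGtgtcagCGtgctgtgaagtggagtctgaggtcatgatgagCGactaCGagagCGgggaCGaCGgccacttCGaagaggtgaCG
Ttn 5mC exon, chr2:76710445-76710565: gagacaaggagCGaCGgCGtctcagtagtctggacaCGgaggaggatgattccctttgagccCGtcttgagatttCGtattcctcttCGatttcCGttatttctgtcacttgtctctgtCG
These windows were picked for the strings and CpG they show and are not typical of the lists. They therefore cannot show a difference between the lists. CpG in the 5hmC windows were left in lower case and not counted. The 5mC windows held 10 CpG in Cmip, 9 in Pxn, 9 in Mgll and 6 in Pik3r1. The shared stretches held 11 CpG in Zmiz1 and 9 in Pkd2, and the exon windows held 14 in Fat1 and 9 in Ttn.

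Later 5mC peaks lay in coding exons far more often than early 5hmC peaks did. A coding exon was touched by 753 of 2401 later 5mC peaks (31.4%, interval 29.5 to 33.2) and by 204 of 2058 early 5hmC peaks (9.91%, interval 8.70 to 11.3). Genome windows of the median peak width, 1005 bp for 5mC and 818 bp for 5hmC, touched a coding exon in 6.18% and 5.45% of cases. Introns held 39.1% of early 5hmC peaks (interval 37.0 to 41.2) and 28.2% of later 5mC peaks (interval 26.4 to 30.0), against 30.6% and 29.7% of genome windows. Promoters, taken as the 5000 bp upstream of a transcription start, held similar shares, 8.79% of 5hmC (interval 7.65 to 10.1) and 8.04% of 5mC (interval 7.02 to 9.19). The remaining peaks were intergenic (40.4% and 30.2%) or in untranslated or noncoding exons (1.85% and 2.21%). Each peak was given the first class it touched in the order promoter, coding exon, other exon, intron. By the peak midpoint alone the coding share fell to 16.1% for 5mC and 3.74% for 5hmC, where coding exons make up 1.22% of assembled bases, and introns then held like shares of both lists (43.0% of 5mC and 45.8% of 5hmC).

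**Figure D1:**
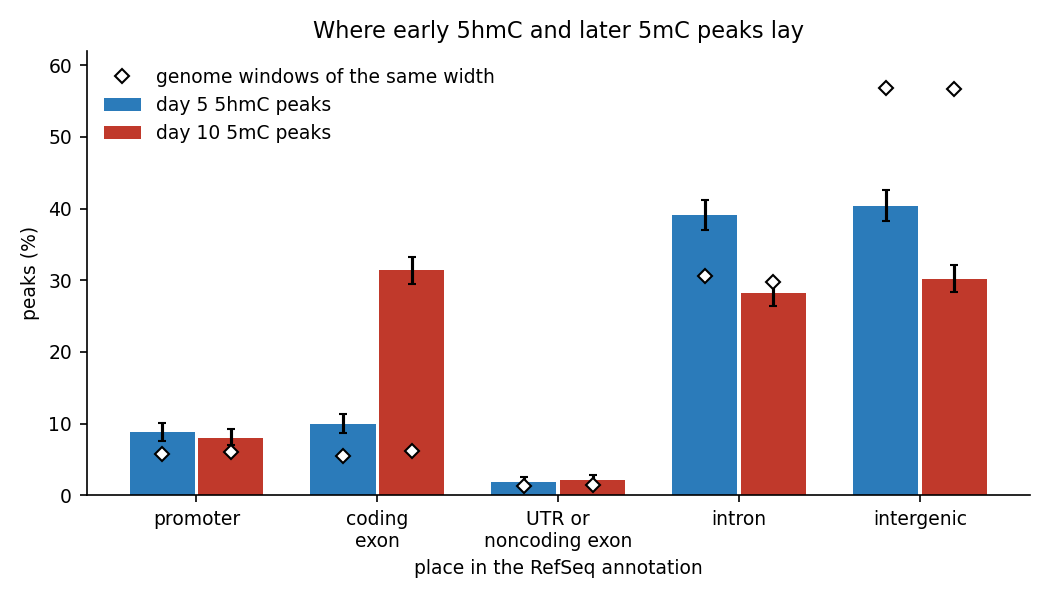
Share of peaks (y axis, percent) in each class of the RefSeq annotation (x axis) for 2058 day 5 5hmC peaks (blue) and 2401 day 10 5mC peaks (red), with 95% Wilson intervals for counting error as bars and genome windows of the same median width as open diamonds. Coding exons held 31.4% of later 5mC peaks against 9.91% of early 5hmC peaks, and intergenic sequence held fewer of both than of genome windows.

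The exonic 5mC peaks fell in 662 genes by the authors' symbols, 61 of them with more than 1 such peak, whereas exonic 5hmC peaks fell in 194 genes, 5 of them with more than 1. Position along the gene differed as well. Among peaks whose midpoint lay inside the gene named by the authors, 35.0% of 5mC peaks at genes without early 5hmC (424 of 1213, interval 32.3 to 37.7) lay in the last 25% of the gene's length and 17.7% (interval 15.7 to 19.97) in the first 25%. Early 5hmC peaks at genes without later 5mC showed no such tilt, with 26.0% (208 of 799, interval 23.1 to 29.2) in the last 25% and 25.3% (interval 22.4 to 28.4) in the first 25%.

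CpG content separated the lists too. The median was 2.42 CpG per 100 bp in later 5mC peaks (quartiles 1.84 and 3.04) and 1.61 in early 5hmC peaks (quartiles 1.23 and 2.03), while the flanks, of equal width and starting 2 kb away, had 1.08 and 0.976. Both lists were richer in CpG than the genome, whose windows had medians of 0.697 and 0.611. More CpG than in their own flanks was found for 90.3% of 5mC peaks (interval 89.0 to 91.4) and 79.4% of 5hmC peaks (interval 77.6 to 81.1). Few peaks had the composition of a CpG island (GC over 50% and observed over expected CpG above 0.6), 4.66% of 5mC and 1.55% of 5hmC peaks. In 5mC peaks the coding exons were the densest class, with a median of 2.78 CpG per 100 bp against 2.12 in introns. In 5hmC peaks the medians were 1.90 in coding exons and 1.53 in introns, so that the gap between the lists was present within each class.

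Of 4 short strings bound by transcription factors, the AP-1 string had the widest gap between the lists. AP-1 factors are FOS and JUN dimers that bind TGACTCA or TGAGTCA at enhancers. This string was present in 887 of 2058 early 5hmC peaks (43.1%, interval 41.0 to 45.3) and in 322 of 2401 later 5mC peaks (13.4%, interval 12.1 to 14.8). Flanks held it in 14.2% and 17.0% of cases and genome windows in 12.2% and 14.8%. The later 5mC peaks thus had it slightly less often than their flanks, and the early 5hmC peaks far more often. The share among early 5hmC peaks was like at genes with both marks (47.7%, interval 41.8 to 53.5), at genes with 5hmC only (43.1%, interval 39.97 to 46.2) and outside the authors' gene assignments (41.6%, interval 38.3 to 45.0). It was also high within coding exons (51.0%, interval 44.2 to 57.8) and introns (42.7%, interval 39.3 to 46.1), whereas 5mC peaks had it in 13.9% and 14.5% of these classes.

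The other strings showed smaller gaps. The string of nuclear factor I (CTGCCAAG or TTGCCAAG, either strand) was in 14.2% of 5hmC peaks and 9.50% of 5mC peaks, with flanks at 7.93% and 9.59%. The RUNX string (AACCACA, either strand) was in 25.6% of 5hmC and 19.8% of 5mC peaks, with flanks at 19.5% and 22.6%. The SOX string (ACAAAGG or ACAATGG, either strand), of the family of the cartilage regulator SOX9, was in 27.2% of 5hmC peaks, close to 26.7% of their flanks, and in 30.2% of 5mC peaks, with 31.4% of their flanks. Genome windows held these 3 strings in 6.50%, 17.7% and 27.5% of cases at the 5hmC width and 7.92%, 21.3% and 32.6% at the 5mC width. A match describes letters and not a bound factor.

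**Figure D2:**
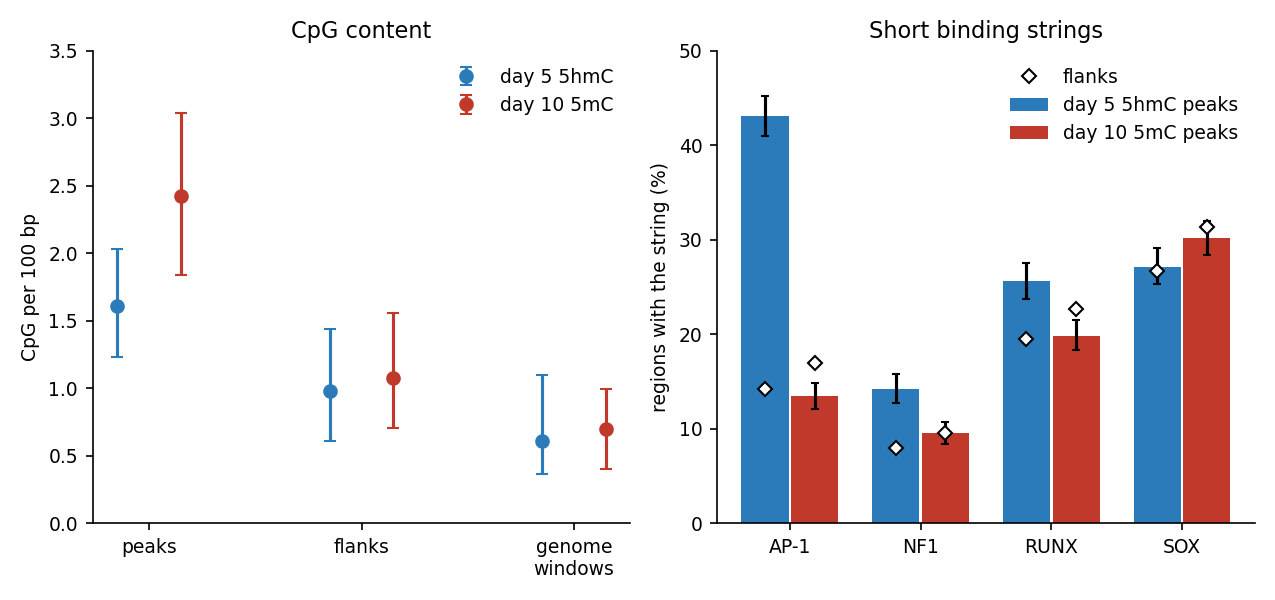
Left, median CpG per 100 bp (y axis) in peaks, flanks of equal width and genome windows, with quartiles as bars. Right, percent of peaks (bars, with 95% Wilson intervals) and of flanks (open diamonds) that hold each string. Later 5mC peaks (red) were denser in CpG, 2.42 against 1.61, and early 5hmC peaks (blue) held the AP-1 string in 43.1% against 13.4%.

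Few early 5hmC peaks overlapped a later 5mC peak. At least 1 shared base was found for 24 of 2058 early 5hmC peaks (1.17%, interval 0.785 to 1.73) and 23 of 2401 later 5mC peaks (0.958%, interval 0.639 to 1.43). Of all genome windows of 818 bp, 0.168% overlapped a later 5mC peak. The 24 5hmC peaks comprised 14 at 13 genes by the authors' symbols, 8 with no symbol, 1 on the mitochondrial chromosome and 1 at Rn45s, the 45S ribosomal RNA precursor. The mitochondrial pair shared 6573 bp and the Rn45s pair 6114 bp, out of 24303 shared bp in all. Both sequences are present in many copies in a cell, and their reads can come from any copy. Without them the 22 other pairs shared 30 to 1355 bp each, with a median of 525.5 bp. Shared bases count both end positions, so a peak can share 1 bp more than its width. The 24 peaks also met the day 10 5hmC list more often than the whole list did, 16 of 24 (66.7%, interval 46.7 to 82.0) against 609 of 2058 (29.6%, interval 27.7 to 31.6).

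The widest shared stretch at a protein-coding gene was at Myc, the proto-oncogene of growth and proliferation, on chromosome 15. One early 5hmC peak of 1507 bp over exon 2 and another of 977 bp over exon 3 lay largely or wholly inside a single later 5mC peak, sharing 1355 and 978 bp. The exon 2 stretch held 75 CpG, the highest number among the 22 pairs outside the mitochondrial and ribosomal RNA sequences. Day 10 5hmC peaks overlapped both.

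Most other gene pairs were intronic. In Zmiz1, a coactivator related to the PIAS proteins, the whole later 5mC peak, 899 bp with 24 CpG, lay inside an early 5hmC peak of 1474 bp in intron 2 of 23. In Zfp821, a zinc finger gene, a 5mC peak lay entirely inside a 5hmC peak over 650 bp of intron 2 with 8 CpG. In Pkd2, the polycystin-2 channel, 459 bp with 13 CpG were shared in intron 1 of 14. In Lipc, hepatic lipase, the 5hmC peak lay wholly in the 5mC peak over 512 bp of intron 7 that held 4 CpG. In Cldn34d, a claudin gene on the X chromosome, 714 bp of intron 1 with 6 CpG were shared. The shared stretches of Lipc, Cldn34d and Zfp821 were poor in CpG, with 0.781, 0.840 and 1.23 per 100 bp. Repeat bases made up 42.2%, 27.7% and 31.8% of them, against medians of 10.6% in all early 5hmC and 14.0% in all later 5mC peaks. Zmiz1 and Pkd2 had 2.67 and 2.83 CpG per 100 bp and 5.01% and 5.23% repeat bases.

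At 4 further genes the peaks shared only a small part. In Pxn, which encodes the focal adhesion adaptor paxillin, the peaks shared 54 bp of intron 1, and in Cmip, the c-MAF-inducing protein, 48 bp of intron 3. In Sh3pxd2a, the podosome scaffold TKS5, 30 bp of intron 7 were shared. In Pik3r1, the regulatory subunit of PI3 kinase downstream of insulin, which is part of the differentiation medium, 179 bp of intron 14 were shared with 3 CpG, and both peaks reached a coding exon. The AP-1 windows and the CpG-rich windows printed above for Pxn, Cmip and Pik3r1 come from these neighbouring peaks.

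Exons or gene ends held the remaining gene pairs. In D630045J12Rik, 956 bp with 28 CpG over coding exon 11 of 20 were shared. In Acoxl, an acyl-CoA oxidase-like gene, 365 bp with 17 CpG were shared at its last exon, and in Gm5577, 127 bp with 1 CpG. By the order of classes used above, both peaks of the Acoxl and Gm5577 pairs counted as promoter. The 8 pairs with no symbol lay on chromosomes 1, 3, 8, 14, 15, 17 and 19, with 1 pair on each but 2 on chromosome 17, and shared 53 to 961 bp. The CpG-richest of them, on chromosome 19, had 50 CpG in 961 bp. A shared stretch of 692 bp on chromosome 17 had only 4 CpG and 53.9% repeat bases.

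Early 5hmC peaks lay nearer to later 5mC peaks than genome windows did, at the 4 distances compared. Within 1 kb were 33 peaks (1.60%, interval 1.14 to 2.24) against 0.348% of windows of 818 bp, and within 10 kb 99 peaks (4.81%, interval 3.97 to 5.82) against 1.89%. Within 50 kb were 389 peaks (18.9%, interval 17.3 to 20.7) against 7.88% of windows, and within 100 kb 635 (30.9%, interval 28.9 to 32.9) against 14.1%. The median distance was 214 kb (quartiles 73.9 and 590). The gap to the genome windows was present at each of these limits. The windows were not matched to the peaks by chromosome or by place relative to genes. Both lists were uneven in these respects, and the part of this in the gap was not tested.

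The day 10 5hmC list gave similar shares. Day 10 5hmC peaks, which were narrower, lay within 10 kb of a day 10 5mC peak in 190 of 4164 cases (4.56%, interval 3.97 to 5.24), with a median distance of 227 kb. Day 0 5mC peaks lay within 10 kb of a day 10 5mC peak in 5 of 326 cases (1.53%, interval 0.657 to 3.54). Of the 99 early 5hmC peaks within 10 kb, 62 shared the authors' gene symbol with the nearest 5mC peak, 25 had no symbol on either side and 12 were other combinations.

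**Figure D3:**
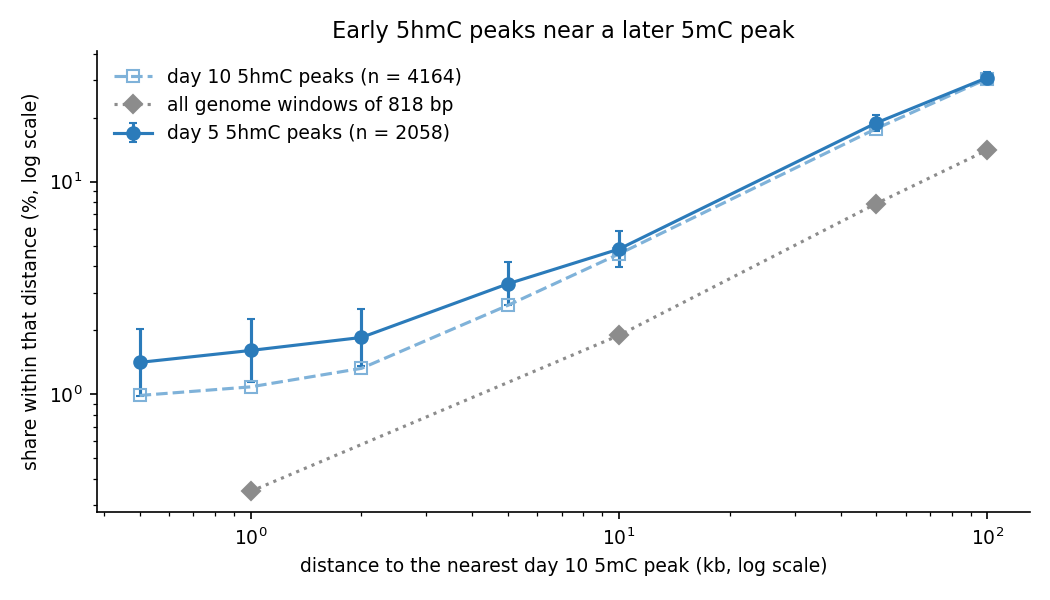
Percent of regions (y axis, log scale) within a given distance in kb (x axis, log scale) of the nearest day 10 5mC peak, for 2058 day 5 5hmC peaks (blue, with 95% Wilson intervals), 4164 day 10 5hmC peaks (light blue) and all genome windows of 818 bp (grey). At 10 kb the shares were 4.81%, 4.56% and 1.89%.

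By gene, 859 genes had early 5hmC only, 209 had both marks and 1139 had later 5mC only, out of 2207 genes with either. These classes rest on listed peaks. A gene without a listed peak need not lack the mark, since the lists hold only peaks above their fold limits. As background, 4.8% of the 21000 protein-coding genes had an early 5hmC peak, 6.13% a later 5mC peak, 0.971% both and 9.96% either. The 209 genes were 19.6% of the genes with early 5hmC (interval 17.3 to 22.1) and 15.5% of those with later 5mC (interval 13.7 to 17.5). Genes with both marks were long, with a median length of 154.5 kb (quartiles 80.3 and 312), against 54.7 kb for early 5hmC only, 47.2 kb for later 5mC only and 16.7 kb for all protein-coding genes. The classes were therefore also read within bands of length.

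Within the longest 10% of protein-coding genes, over 108 kb, 131 of 373 genes with early 5hmC had later 5mC (35.1%, interval 30.5 to 40.1) against 294 of 1727 without early 5hmC (17.0%, interval 15.3 to 18.9). Between 43.7 and 108 kb the shares were 18.8% (interval 14.8 to 23.7) and 9.94% (interval 8.89 to 11.1). Among genes of 16.7 to 43.7 kb they were 6.60% (interval 3.97 to 10.8) and 5.30% (interval 4.71 to 5.95), and below 16.7 kb the shares of genes with early 5hmC rested on 4 genes with both marks. In the 2 bands of the longest genes the intervals did not overlap, while in the shorter bands they did. The longest band ran from 108 to 2271 kb. Gene length was not compared within bands, so its part in these shares was not tested.

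**Figure D4:**
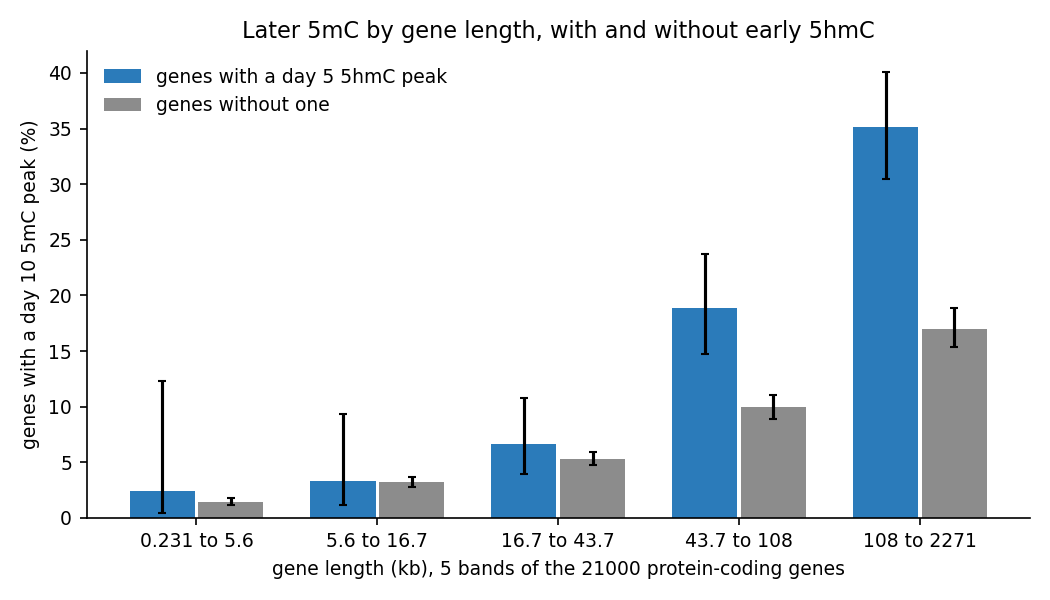
Percent of protein-coding genes with a day 10 5mC peak (y axis) in 5 bands of gene length in kb (x axis), for genes with a day 5 5hmC peak (blue) and without one (grey), with 95% Wilson intervals. In the longest band 35.1% of genes with early 5hmC had later 5mC against 17.0% of the others.

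A day 10 5hmC peak was listed for 139 of the 209 genes with both marks (66.5%, interval 59.9 to 72.6), 371 of the 859 with early 5hmC only (43.2%, interval 39.9 to 46.5) and 192 of the 1139 with later 5mC only (16.9%, interval 14.8 to 19.1), against 7.70% of all protein-coding genes. Gene length moved with these shares and its part in them was not tested. Among the genes with both marks, 50 had more than 1 early 5hmC peak and 63 more than 1 later 5mC peak.

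Inside the genes with both marks the marks usually lay apart. The nearest 5hmC and 5mC peaks of a gene overlapped in 14 of the 209 genes, the 13 above and Rn45s, lay within 10 kb in 59 (28.2%, interval 22.6 to 34.7) and over 50 kb apart in 64 (30.6%, interval 24.8 to 37.2), with a median of 25.5 kb (quartiles 8.29 and 63.5). Neither order prevailed along the gene: the 5hmC peak lay upstream in 106 of 195 genes (54.4%, interval 47.4 to 61.2). Both peaks of the nearest pair were intronic in 102 genes, and in 45 they lay in the same intron. In these genes 78.0% of 5hmC peaks (interval 72.7 to 82.5) and 54.6% of 5mC peaks (interval 49.1 to 60.1) were intronic, while coding exons held 11.9% of 5hmC (interval 8.61 to 16.3) and 35.8% of 5mC peaks (interval 30.7 to 41.2). The higher exonic share of later 5mC was thus present within genes that carried both marks.

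**Figure D5:**
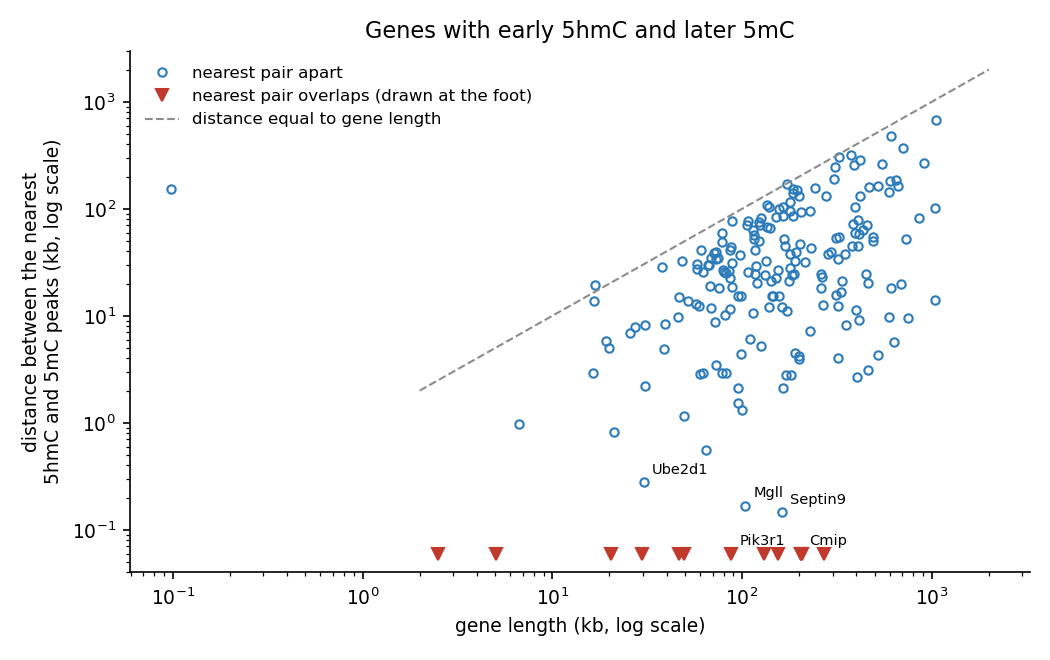
Distance in kb between the nearest day 5 5hmC and day 10 5mC peaks of a gene (y axis, log scale) against gene length in kb (x axis, log scale) for 208 genes with both marks and an annotated length. The 13 genes whose peaks overlap are drawn at the foot as red triangles, and the dashed line marks a distance equal to the gene's length. The median distance over all genes with both marks was 25.5 kb, and the point at the far left is a short RNA gene.

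After the overlapping pairs, the closest neighbours lay within 1 intron. In Septin9, a cytoskeletal GTPase with 3 early 5hmC peaks, a 5hmC and a 5mC peak of intron 2 were 146 bp apart. In Mgll, which hydrolyses monoacylglycerols, the gap was 168 bp in intron 3, and in Ube2d1, a ubiquitin-conjugating enzyme, 279 bp in intron 1. In Pgbd5, a domesticated transposase gene, the peaks of intron 1 were 562 bp apart. Zcchc4, an RNA methyltransferase (intron 2, 1152 bp), Gxylt2, a xylosyltransferase acting on Notch (intron 1, 1319 bp), Cuedc1 (intron 1, 1535 bp), Atxn7, a subunit of the SAGA coactivator (intron 3, 2096 bp), and Nmnat2, an enzyme of NAD synthesis (intron 8, 2120 bp), showed the same layout.

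A pair of the closest genes had 5mC over an exon or past the gene. In Egr2, an immediate-early zinc finger factor of only 6.69 kb, the later 5mC peak covered coding exon 4 and the early 5hmC peak began 51 bp past the gene end, 966 bp away. In Rpp30, a subunit of RNase P, the early 5hmC peak lay at coding exon 11 and the 5mC peak 599 bp past the gene end.

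Genes with the most early 5hmC peaks and no later 5mC carried them mainly in introns. Babam2, a subunit of the BRCA1-A complex, had 5 peaks, 1 touching a coding exon and 4 in introns 3 to 10. Msi2, an RNA-binding protein of progenitor cells, had 4 in introns 6 and 8. Fbn1, the microfibril protein fibrillin-1 of connective tissue, and Antxr1, a receptor that binds extracellular matrix, also had 4 each, with 3 in introns and 1 touching a coding exon. These genes carried 5hmC at day 10 too, with 5 peaks in Babam2, 3 in Msi2, 4 in Fbn1 and 2 in Antxr1.

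With 3 early 5hmC peaks each followed Wnt5b, a noncanonical WNT ligand of growth plate chondrocytes, Rxra, the retinoid X receptor alpha, Arhgef3, a guanine nucleotide exchange factor, Sorcs2, a sortilin-family receptor, Tspan9, a tetraspanin, and Gm12216. Wnt5b had a pair of peaks in intron 1 and 1 at coding exon 3. Sorcs2, Tspan9 and Gm12216 had all 3 in introns, and Sorcs2 had 6 peaks in the day 10 5hmC list.

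Some of the genes with the most later 5mC peaks and no early 5hmC carried them mainly over coding exons. The length of coding sequence was not taken into account. Ttn, the giant sarcomere protein titin, had 9 peaks, all touching coding exons, from exon 44 to exon 312 of 313. Fat1, an atypical cadherin, had 6 of 6 at coding exons, at exons 1, 14, 18 and 26 of 26 and a pair over exon 9. Fryl had 8 peaks with 6 at coding exons, and Kif21a, a kinesin, 4 of 4. None of these 4 genes had a peak in the day 10 5hmC list.

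Others were mixed or intronic. Cit, the citron kinase of cytokinesis, had 3 of 5 peaks at coding exons, Wdfy3, an autophagy scaffold, 2 of 4, Heg1, a receptor of endothelial junctions, 2 of 4, and Lrmp, a membrane protein of the endoplasmic reticulum, 2 of 5. Pde4d, a cAMP phosphodiesterase, had all 5 in introns, and Apbb2, which binds the amyloid precursor protein, had 2 of 4 in introns. Pde4d, Apbb2, Cit and Heg1 had day 10 5hmC, with 6, 5, 2 and 1 peaks, while Wdfy3 and Lrmp had none.

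Of 475 genes in 13 lists on cartilage, signalling and the cytoskeleton, 76 had an early 5hmC peak (16.0%), 63 a later 5mC peak (13.3%) and 21 both (4.42%), beside 4.8%, 6.13% and 0.971% of all protein-coding genes. The lists held longer genes than the genome, with list medians from 10.8 to 91.9 kb against 16.7 kb, and the share of genes with a peak rose with length over the bands above. Lists and members were also chosen with earlier results of these data known, so these shares are not independent of the data. For every list below, the background is 4.8% of all protein-coding genes for early 5hmC and 6.13% for later 5mC.

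Genes of the cartilage matrix itself had early 5hmC in 2 of 31 (6.45%, interval 1.79 to 20.7) and later 5mC in 1 (3.23%, interval 0.572 to 16.2), beside 4.8% and 6.13% of all protein-coding genes, which both intervals include. Among them Chst11, a chondroitin sulphotransferase, had early 5hmC in intron 2, and Col27a1, a fibrillar collagen of cartilage, had early 5hmC in intron 1 and later 5mC in intron 5. Of 34 other matrix genes, 7 had early 5hmC only (20.6%, interval 10.3 to 36.8). These were Col12a1, Col3a1, Col5a2, Col6a1, Col6a3, Fbn1 and the collagen cross-linking enzyme Lox. Later 5mC only was at 2, Fbn2 and Fn1, fibronectin (5.88%, interval 1.63 to 19.1, which includes 6.13%). Col12a1 had a pair of early 5hmC peaks, at coding exons 36 and 42, and the fibronectin 5mC peak lay at coding exon 25 of 45.

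Skeletal transcription factors had early 5hmC in 12 of 47 genes (25.5%, interval 15.3 to 39.5) and later 5mC in 8 (17.0%, interval 8.89 to 30.1), with 4 in common. In Runx2, the master factor of bone and of hypertrophic chondrocytes, the early 5hmC peak lay in intron 5 and the later 5mC peak in intron 3. The longest transcript, on which these Runx2 introns were numbered, was a noncoding one. Runx3 had 5hmC in intron 4 and 5mC at coding exon 3. Sox5, a partner of SOX9, had 2 early 5hmC peaks, in introns 3 and 10, 2 later 5mC peaks, in introns 1 and 3, and 5 day 10 5hmC peaks. Creb5 had 2 early 5hmC peaks in introns 1 and 3 and a 5mC peak in intron 1.

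An early 5hmC peak without a listed later 5mC peak was found at Sox9, the master regulator of chondrogenesis. It began 40 bp past the gene end, and Sox9 had no day 10 5hmC peak. The same class held Sox4 (peak 5599 bp upstream), Runx1 (2 intronic peaks), Trps1, Meis1, Nfib, Nfic and Prrx2. Later 5mC without early 5hmC was found at Prrx1 and Cbfb, the partner of RUNX factors, in introns 1 and 2, and at Meis2 and Nfatc1. Among AP-1 and other bZIP factors, 5 of 36 had early 5hmC only (13.9%, interval 6.08 to 28.7, beside 4.8% of all protein-coding genes). These were Fosb and Fosl2 at coding exon 2, Creb3l2, Mafa and Nfe2l2. Later 5mC only was at 2, Atf6 and Bach2 (5.56%, interval 1.54 to 18.1, beside 6.13% of all protein-coding genes). In the Hippo pathway list of 18, Yap1 and its target Ccn1 had early 5hmC (11.1%, interval 3.10 to 32.8). The Ccn1 peak lay 6796 bp upstream, outside the gene and the promoter as defined above. The kinase Stk4 had later 5mC (5.56%, interval 0.988 to 25.8). Both Hippo intervals include the shares of all protein-coding genes, 4.8% and 6.13%.

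WNT genes had later 5mC in 10 of 47 (21.3%, interval 12.0 to 34.9) against 6 with early 5hmC (12.8%, interval 5.98 to 25.2), though these intervals overlapped. Ligands and their receptors fell on both sides: Wnt4, Wnt5b and the receptor Ror2 had early 5hmC only, Wnt7b, Fzd1, Fzd6 and Ror1 later 5mC only. The secreted inhibitors Sfrp1 and Wif1 and the scaffold Axin2 also had later 5mC only, with the Axin2 peak at coding exon 3 and the Sfrp1 peak at coding exon 2. Both marks were found at 3 nuclear effectors, Lef1, Tcf7l1 and Tcf7l2. Tcf7l2 had 2 early 5hmC peaks, one 689 bp upstream of the start and one in intron 4, and 5 later 5mC peaks, 2 of them at coding exons 4 and 12.

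Hedgehog and PTHrP genes, which pace growth plate differentiation, had early 5hmC at the effectors Gli2 and Gli3, the receptor Ptch1 and the ligand Pthlh (4 of 18) and later 5mC at Disp1 and Kif7 (2 of 18). TGF-beta and BMP genes had early 5hmC at Smad3 and at the receptor Bmpr1b, and later 5mC at Bmpr1b and Tgfbr2 (2 of 41, or 4.88%, for each mark, beside 4.8% and 6.13% of all protein-coding genes). FGF and MAP kinase genes had later 5mC in 9 of 45 (20%, interval 10.9 to 33.8), among them the receptors Fgfr1 (coding exon 14) and Fgfr2. Early 5hmC was at 5 of them (11.1%, interval 4.84 to 23.5). The shares of all protein-coding genes were 6.13% and 4.8%. Map2k6, a kinase upstream of p38, had 5 later 5mC peaks, 4 in intron 1, and 1 early 5hmC peak at coding exon 10.

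Insulin, IGF and PI3 kinase genes had early 5hmC in 7 of 41 (17.1%, interval 8.53 to 31.3, beside 4.8% of all protein-coding genes). Among them were Foxo3, Inpp4b, Phlpp1, Pik3cb, Rptor and Pik3r1. Later 5mC was at Igf1r, Grb10, Pik3ca, Pik3cd and Pik3r1, 5 of 41 (12.2%, interval 5.32 to 25.5, which includes 6.13% of all protein-coding genes). Inpp4b and Phlpp1 encode phosphatases that oppose PI3 kinase and AKT signalling, and their early peaks lay in introns 7 and 1. The Igf1r 5mC peaks lay at coding exons 6 and 13.

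Among 23 genes of DNA methylation and its removal, 3 had a peak, where 9.96% of all protein-coding genes had one. Each mark was at 2 of the 23 (8.70%, interval 2.42 to 26.8). That interval includes the shares of all protein-coding genes, 4.8% for early 5hmC and 6.13% for later 5mC. Tet1, a dioxygenase that forms 5hmC, had a later 5mC peak in intron 4 of 12, no early 5hmC peak and 2 day 10 5hmC peaks. Mbd2, a methyl-CpG binding protein, had an early 5hmC peak 2828 bp upstream and later 5mC peaks at coding exons 3 and 6, and Gadd45b had early 5hmC 1307 bp past its end.

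Of 41 integrin and focal adhesion genes, 7 had early 5hmC (17.1%, interval 8.53 to 31.3) and 8 later 5mC (19.5%, interval 10.2 to 34.0). The shares of all protein-coding genes were 4.8% and 6.13%. Pxn and Tns1, both adaptors of focal adhesions, carried both marks. The integrins Itga1, Itga6 and Itga9 had later 5mC at coding exons 13, 25 and 25, and Itgb3 at its last exon, outside the coding part. Early 5hmC was found at coding exon 20 of Itga7 and in 2 introns of Itgb5.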

How the data were processed

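Genomic DNA of ATDC5 cells was enriched for 5hmC (day 5, 2 samples) or 5mC (day 10, 1 sample) and sequenced. Per the study's methods and the submitters' notes, the authors checked and trimmed reads (FastQC, cutadapt), aligned them with BWA to GRCm38 (mm10) and called peaks with MACS 1.4.2. Each deposited line gives a chromosome, start and end, and some lines also name a gene and its accession; no deposited column holds a fold, score, count or p-value, and the file headers state only the minimum fold (10 for 5hmC, 3 for 5mC). Start and End are the deposited positions (unit: other, base positions). Whether starts count from 0 or 1 is not given in the sources used here and would move a distance by 1 bp. The methods describe the calling as a search for gain or loss between progenitors and chondrocytes, so the lists may hold differences rather than all sites. Depth is unknown.

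Blank rows (27818 in the day 5 list) were dropped and no peak was filtered. Overlap meant at least 1 shared bp, and distances ran between nearest edges. Width was end minus start. Genes were the authors' symbols, brought to current RefSeq symbols mostly through their accessions (1 of 1231 day 5 and 3 of 1665 day 10 peaks unmatched). Some peaks lay more than 5000 bp upstream of the gene named. Examples were Ccn1 (6796 bp), Fzd1 (6646 bp), Sox4 (5599 bp) and Col6a1 (5230 bp). Promoters (5000 bp upstream), exons and introns came from curated transcripts of RefSeq on GRCm38.p6, and exon and intron numbers from the longest transcript of a gene; a peak touching an exon was placed there, and where it touched several the first along the chromosome gave the number. Repeat bases were those in lower case in that reference. Motifs were counted on both strands. Genome windows were all windows of the list's median width without unknown bases, end to end on the assembled chromosomes. Printed stretches were read as 1-based positions.

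Named were every overlapping pair, the 25 genes with both marks whose peaks lay closest, the 10 genes of each single-mark class with the most peaks, and members of 13 gene lists, of which 1 list and some members are not reported here. The members and lists were chosen with earlier results of these data known. Shares have 95% Wilson intervals over peaks or genes; with 1 list per mark and day no test between samples was made. The overlap, distance and motif code was tested on simulated data. Python 3.11.15, numpy 2.4.6, pandas 2.3.3, scipy 1.17.1 and matplotlib 3.10.9 were used. Alternatives covered the overlap rule, distance, gene assignment, peak width, sequence window and annotation. The day 0 input sample was not analysed here.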

Additional observations from a re-analysis of the deposited data

How the results depend on the processing

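No paired analysis was possible because the numbered 5hmC samples were merged into 1 list per day and the 5mC list held 1 sample, and no replicate could be left out for the same reason. Of 84 recomputed values, 50 stayed within 1.5 times the reported count or inside its 95% interval and 34 did not, and in every setting printed here the 5mC list kept the higher CpG content and coding exon share and the 5hmC list the higher AP-1 share. Overlap counts fell from 24 early 5hmC and 23 later 5mC peaks to 12 and 12 when at least 50% of both peaks had to be shared. With 50% of the shorter peak shared the later 5mC count was 15, and with the midpoint inside the other peak it was 13. Within 5 kb lay 3.30% and within 50 kb 18.9% of early 5hmC peaks. Restricting each list to peaks of at least its median width left 81 genes with both marks, 486 with early 5hmC only and 649 with later 5mC only, from fewer peaks by construction. Other gene assignments gave 197 to 222 genes with both marks, and the assignment by gene body or 5000 bp upstream shared 201 with the symbols. Median CpG per 100 bp was 1.71 in 5hmC and 2.56 in 5mC peaks outside repeat bases, and 2 and 3 in the central 200 bp. The AP-1 string was in 18.7% of 5hmC and 2.87% of 5mC centres of 200 bp, which are shorter than peaks. By midpoint, coding exons held 3.74% of 5hmC and 16.1% of 5mC peaks. Unknown depth, unknown controls and different fold limits prevent a comparison of how much of each mark the cells carried.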

Other observations

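The chromosomes carried the marks unevenly, and the balance between them varied. Per assembled Mb, chromosome 11 had the most early 5hmC peaks (1.48) and chromosome 19 the most later 5mC peaks (2.28). Later 5mC peaks outnumbered early 5hmC peaks on chromosome 10 (202 against 89) and chromosome 19 (133 against 65), while chromosome 14 had 47 against 93. The X chromosome was low in both, with 12 early 5hmC and 13 later 5mC peaks, or 0.0734 and 0.0795 per Mb, and chromosome 12 had 35 and 34.

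Among the 24 early 5hmC peaks that overlapped later 5mC, the median CpG content was 2.26 per 100 bp (quartiles 1.44 and 3.29), above the 1.63 of the 75 peaks that lay within 10 kb without overlap. The AP-1 string was in 8 of these 24 peaks (33.3%, interval 18.0 to 53.3) and in 29 of the 75 (38.7%, interval 28.5 to 49.98). Day 0 5mC peaks overlapped neither list (0 of 326 in each case, interval 0 to 1.16%). Of genome windows, 0.168% of those of 818 bp overlapped a later 5mC peak. An early 5hmC peak was overlapped by 0.145% of those of 1005 bp. The interval includes both shares.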
